A study of Danio rerio with 3 samples.

Results

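The Hox genes of zebrafish embryos (Danio rerio, Tuebingen strain, 24 hours post fertilization) were followed across 3 RNA-seq libraries. They were taken as the genes whose symbol consists of hox, a cluster letter, a paralog group number and a copy letter, which gave 39 of the 25961 genes in the table. A further 9 rows have no symbol but are described in the table as Hox genes, and they are given apart as a second set. Each embryo had received, as a single cell, either 3 ng of a standard control morpholino, 3 ng of a morpholino against hnrnpaba, or 6 ng of the latter. Morpholinos are antisense molecules that bind an RNA and stop its translation or its splicing, and hnrnpaba encodes an RNA-binding protein of the hnRNP family. Each of the 3 groups was 1 library made from 30 pooled embryos, and the library at 6 ng has no control of the same dose.

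Hox genes encode homeodomain transcription factors that give cells their position along the head-to-tail axis. They lie in clusters, and within a cluster the order of the genes follows the order of their expression along the body. Genes of low paralog number are used in the hindbrain and the anterior trunk, and genes of high number in the posterior trunk and tail, where they are also switched on later. The additional genome duplication of the teleost fishes left many groups with an a and a b copy on separate chromosomes. The 39 members fell into 7 clusters named hoxaa, hoxab, hoxba, hoxbb, hoxca, hoxcb and hoxda. They lie on chromosomes 19, 16, 3, 12, 23, 11 and 9 in the same order, 1 chromosome for each cluster, in the coordinates of the authors' table, for which the sources used here name no genome build.

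Values are FPKM, a gene's fragments divided by its model length and by the size of the library. The recovered library totals were 14589056 fragments (control), 17748075 (3 ng) and 13557636 (6 ng). Differences are log2 ratios of FPKM + 1, which understate the differences of genes with low values, and the limit for calling a gene higher or lower was a 2-fold difference on that scale, for genes that averaged at least 1 FPKM in the 3 libraries. For single genes the plain ratio of FPKM is given as the fold, followed in brackets by its exact 95% interval, which covers counting error only. With 1 library per group there is no replicate check and no p-value, so each difference describes these libraries. RNA came from whole embryos, so that fewer cells of a type and less RNA per cell cannot be told apart. The target hnrnpaba had 442, 459 and 342 FPKM in the order control, 3 ng and 6 ng. The sources used here do not say how this morpholino acts, so that level is no check of the labels.

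The Hox transcripts as a whole were more abundant in both hnrnpaba morphant libraries, and the surplus lay in the genes of high paralog number. The 39 members summed to 516, 666 and 631 FPKM in the order control, 3 ng and 6 ng. Groups 9 to 13, which mark the posterior trunk and tail, summed to 194, 340 and 341 FPKM. Groups 5 to 8 of the middle trunk summed to 163, 184 and 170 FPKM, and groups 1 to 4 of the hindbrain and anterior trunk to 159, 142 and 121 FPKM. The sum was thus higher than the control at the posterior end in both libraries, lower at the anterior end in both, and between them in the middle.

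In the control, the single genes ran from 1.76 FPKM for hoxc11b to 37.9 FPKM for hoxb9a. The most abundant member, hoxb9a (ENSDARG00000056023, plus strand of chromosome 3, 23677351 to 23682436), stood at 37.9 FPKM in control embryos and 53.7 and 50.4 FPKM in those given 3 ng and 6 ng. The next, hoxb8a (ENSDARG00000056027, plus strand of chromosome 3, 23687909 to 23690481), a gene of the trunk spinal cord, stood at 37.8 FPKM in control embryos and 44.99 and 37.8 FPKM in those given 3 ng and 6 ng. The third was hoxb1b (ENSDARG00000054033, plus strand of chromosome 12, 27141140 to 27142834), which patterns the early hindbrain and stood at 33.5 FPKM in control embryos and 36.2 and 27.2 FPKM in those given 3 ng and 6 ng. The 3 most abundant members thus came from groups 9, 8 and 1, and hoxb1b was below the control at 6 ng by more than counting error, with a fold of 0.812 (0.729 to 0.904). All 39 members were at 1 FPKM or more in the control, so that none entered the counts through the hnrnpaba libraries alone.

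**Figure D1:**
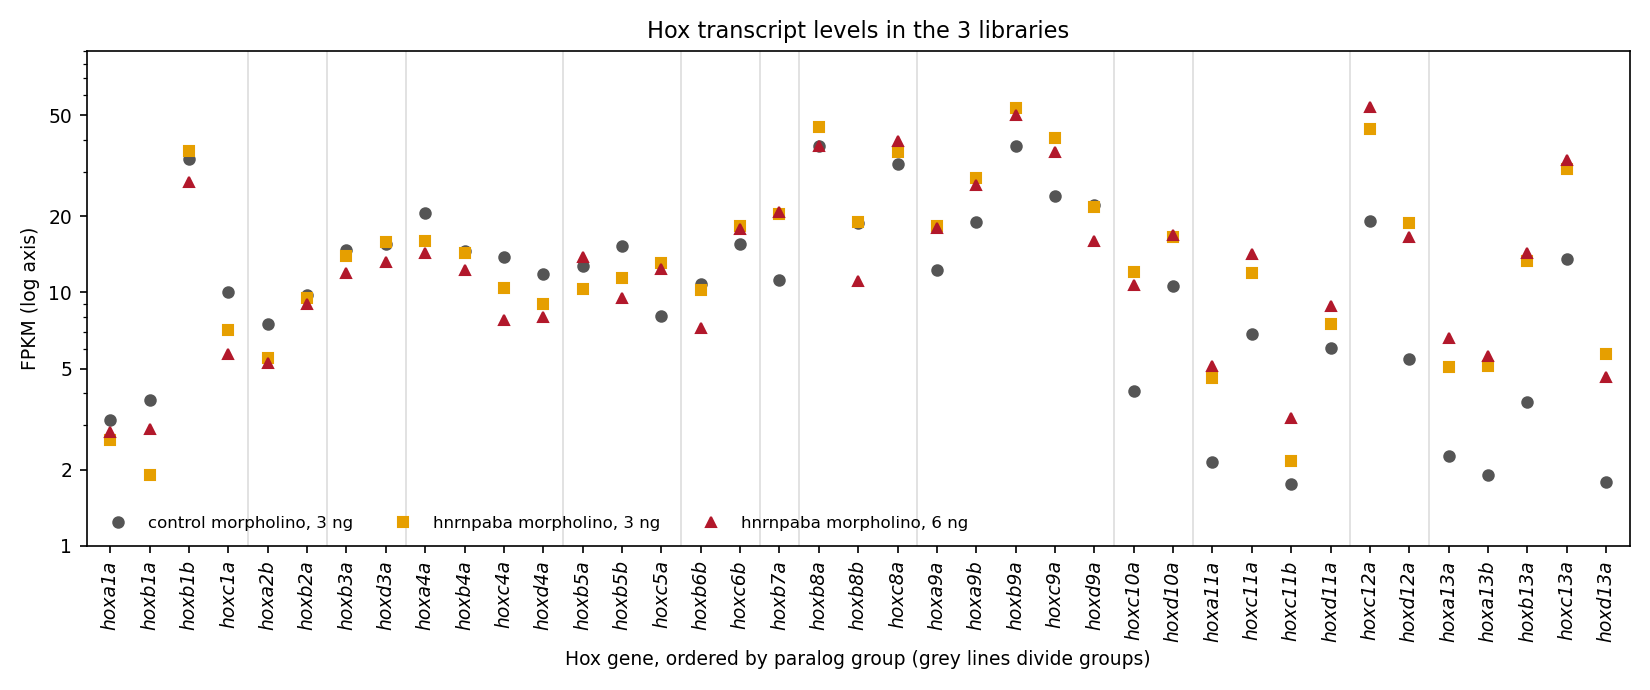
Level of each of the 39 Hox genes in FPKM on a log axis, ordered by paralog group, with 1 point for each library. In groups 10 to 13 the orange squares (3 ng) and red triangles (6 ng) lie above the grey control circles for all 13 genes, whereas in group 4 they lie below them for all 4.

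At 3 ng, 7 of the 39 members were at least 2-fold higher than the control, against 3.68% of the 16429 genes counted, and 0 were at least 2-fold lower, against 2.2% of the genes counted. At 6 ng, 8 members were at least 2-fold higher, against 6.28% of all genes counted, and 0 were lower, against 4.53%. All of the higher members belonged to groups 10 to 13, and the 7 at 3 ng were among the 8 at 6 ng, in comparisons that share the control library. Of the 39 members, 25 overlap another row of the table by position, and of the 14 that overlap none, 3 (hoxb13a, hoxd12a and hoxd13a) were at least 2-fold higher at either dose. With a pseudocount of 5 FPKM the counts of higher members were 3 and 4. Those over all 16429 genes counted were then 137 and 313, against 604 and 1032 in the main setting. Once differences were taken relative to genes of similar length, 4 members were called higher at 3 ng, beside 490 of all genes counted. Without the pseudocount, 9 members at 3 ng and 10 at 6 ng had a fold of at least 2, a measure for which no share over all genes was computed. The nearest member inside the limit at 3 ng was hoxa13b, with a log2 difference of 1.07, and the nearest outside it was hoxa13a, with 0.90. At 6 ng these were hoxd13a, with 1.02, and hoxa11a, with 0.97.

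The median log2 difference over groups 9 to 13 was 0.79 at 3 ng and 0.96 at 6 ng, beside 0.02 and 0.08 over all genes counted. For groups 1 to 4 the medians were -0.27 and -0.29. Both of these classes kept the sign of their median under scaling to equal sums, scaling by the median ratio and a correction for gene length. Groups 5 to 8 had medians of 0.15 and 0.11, which became -0.01 and -0.06 with the correction for gene length, so that no direction is given for them. Across the 39 members, the rank correlation (Spearman's rho) of the log2 difference with the paralog group number was 0.85 at 3 ng and 0.81 at 6 ng. It describes these genes, which share the same libraries. In the same order, the rank correlation with gene length was -0.21 and -0.11, and that with the control level was -0.24 and -0.40.

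**Figure D2:**
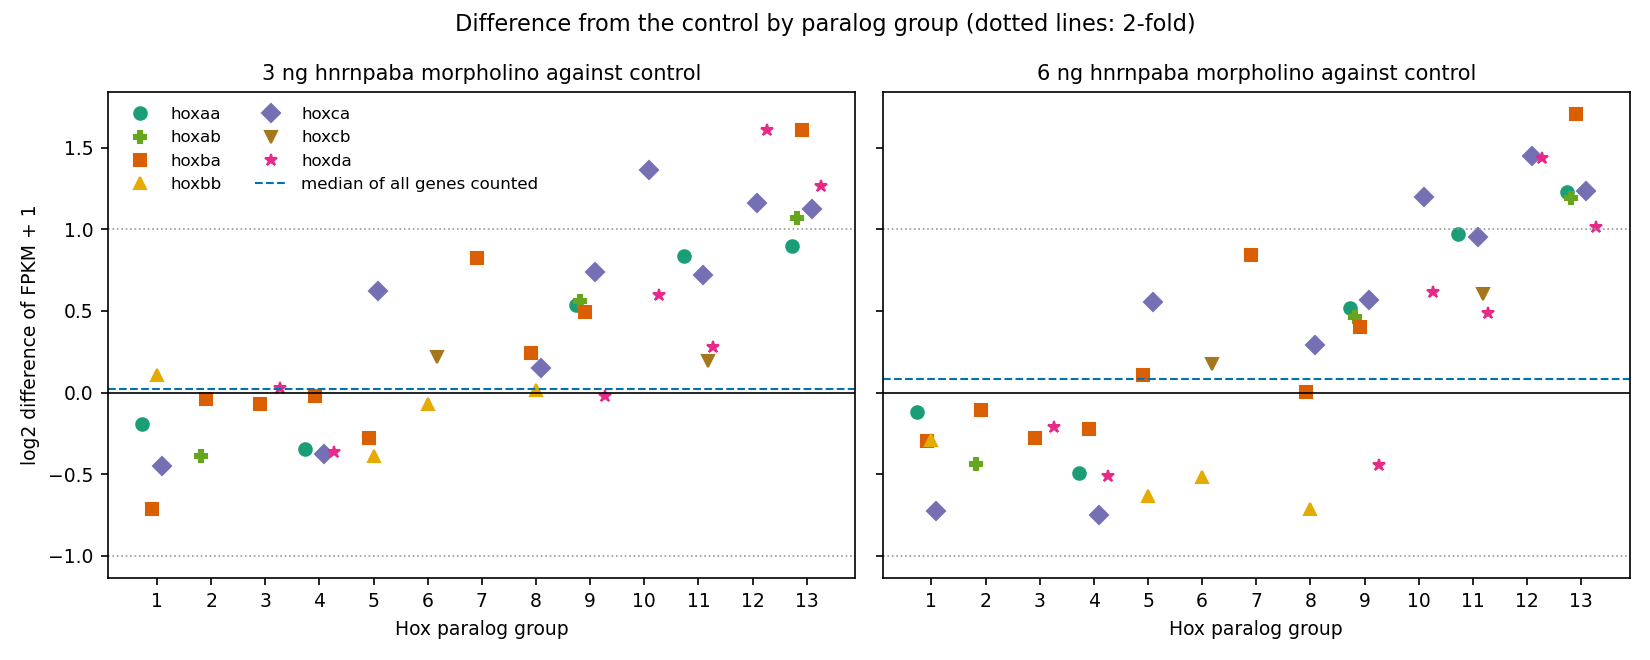
Log2 difference of FPKM + 1 from the control (y axis) against the paralog group number (x axis) for the 39 Hox genes, at 3 ng (left) and 6 ng (right), with marker shapes for the 7 clusters. The points lie below 0 for 10 of the 12 genes of groups 1 to 4 at 3 ng and for all 12 at 6 ng, and above 1 for 4 of the 5 genes of group 13 at 3 ng and for all 5 at 6 ng.

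The make-up of the Hox transcripts does not depend on the scaling of the libraries. Groups 9 to 13 made up 37.7% of the summed Hox FPKM in the control, 51.1% at 3 ng and 53.97% at 6 ng. Groups 1 to 4 made up 30.8%, 21.3% and 19.1%. By recovered fragments, which weight long genes more, groups 9 to 13 held 31.5% of the Hox fragments in the control (exact Clopper-Pearson interval 30.7 to 32.2), 43.995% at 3 ng (43.3 to 44.7) and 46.4% at 6 ng (45.6 to 47.2). The intervals of the 3 libraries did not overlap, with the control lowest and the library at 6 ng highest. They cover counting error only and not differences between pools. Between 3 ng and 6 ng the summed level of groups 9 to 13 was alike, at 340 and 341 FPKM. That of groups 1 to 4 was 142 and 121 FPKM.

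**Figure D3:**
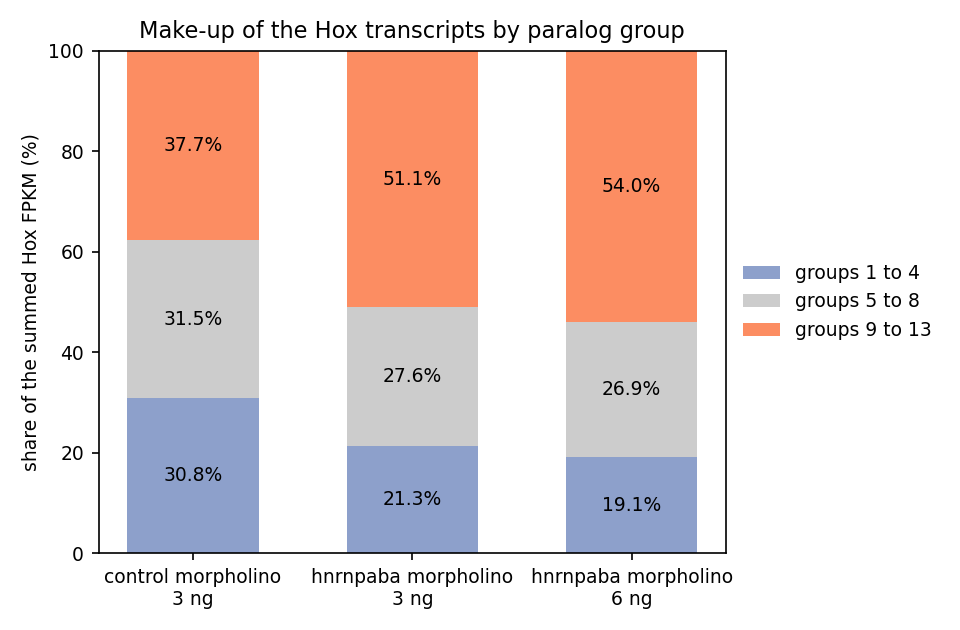
Share of the summed Hox FPKM, in percent, held by paralog groups 1 to 4, 5 to 8 and 9 to 13 in each of the 3 libraries (39 genes). The part of groups 9 to 13 is 37.7% in the control, 51.1% at 3 ng and 53.97% at 6 ng.

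The genes of group 13, which sit at the posterior end of the clusters that hold them and act in the tail and in the outer part of the fins, were above the control in both libraries throughout. hoxb13a (ENSDARG00000056015, plus strand of chromosome 3, 23654233 to 23655834) stood at 3.69 FPKM in control embryos and 13.3 and 14.3 FPKM in those given 3 ng and 6 ng, with folds of 3.601 (2.73 to 4.81) and 3.88 (2.92 to 5.21). hoxc13a (ENSDARG00000070353, plus strand of chromosome 23, 36052944 to 36055886), the most abundant of the group, stood at 13.5 FPKM in control embryos and 30.6 and 33.2 FPKM in those given 3 ng and 6 ng, with folds of 2.27 (1.94 to 2.65) and 2.46 (2.1001 to 2.88). In both genes the hnrnpaba libraries lay close to each other and well above the control. hoxd13a (ENSDARG00000059256, minus strand of chromosome 9, 1986816 to 1990323), which like hoxa13a and hoxa13b is needed for the distal fin skeleton, stood at 1.79 FPKM in control embryos and 5.71 and 4.63 FPKM in those given 3 ng and 6 ng, with folds of 3.19 (2.28 to 4.56) and 2.59 (1.81 to 3.77). hoxa13b (ENSDARG00000036254, plus strand of chromosome 16, 20895904 to 20897836) stood at 1.91 FPKM in control embryos and 5.102 and 5.63 FPKM in those given 3 ng and 6 ng, with folds of 2.68 (1.89 to 3.86) and 2.95 (2.07 to 4.29). hoxa13a (ENSDARG00000100312, plus strand of chromosome 19, 19729506 to 19731291) stood at 2.26 FPKM in control embryos and 5.06 and 6.63 FPKM in those given 3 ng and 6 ng, with folds of 2.24 (1.64 to 3.11) and 2.93 (2.14 to 4.07), and it was past the 2-fold limit on the log2 scale at 6 ng alone. The interval of the fold lay above 1 for all 5 genes in both libraries, against 32.1% at 3 ng and 38.5% at 6 ng over all genes counted. Together they summed to 23.2, 59.8 and 64.4 FPKM, though the single levels in the control spanned from 1.79 FPKM to 13.5 FPKM.

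Group 12 had 2 members, and both were past the limit in both libraries. hoxd12a (ENSDARG00000059263, minus strand of chromosome 9, 1981882 to 1986014) stood at 5.47 FPKM in control embryos and 18.7 and 16.5 FPKM in those given 3 ng and 6 ng, with folds of 3.42 (2.79 to 4.23) and 3.02 (2.44 to 3.77). hoxc12a (ENSDARG00000070352, plus strand of chromosome 23, 36063599 to 36065182) stood at 19.2 FPKM in control embryos and 44.3 and 54.2 FPKM in those given 3 ng and 6 ng, with folds of 2.31 (1.77 to 3.03) and 2.82 (2.16 to 3.72). The model length recovered for hoxc12a, 275 bases, is the shortest that fits its values, so that its interval may be too wide. hoxc12a was the Hox gene of the highest level at 6 ng, while in the control hoxb9a, hoxb8a and hoxb1b were among those above it.

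In group 10, hoxc10a (ENSDARG00000070348, plus strand of chromosome 23, 35969228 to 36086895) stood at 4.08 FPKM in control embryos and 12.1 and 10.7 FPKM in those given 3 ng and 6 ng, with folds of 2.96 (2.46 to 3.59) and 2.61 (2.14 to 3.195). The model of hoxc10a reaches across hoxc11a, hoxc12a and hoxc13a, and fragments of these overlapping genes cannot be divided with certainty. hoxd10a, which has no overlapping row and whose mouse counterpart acts in lumbar motor neurons, stood at 10.6 FPKM in control embryos and 16.6 and 16.8 FPKM in those given 3 ng and 6 ng, with folds of 1.56 (1.34 to 1.83) and 1.58 (1.34 to 1.86). It was higher in both libraries without reaching the 2-fold limit.

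Group 11, whose mouse counterparts shape the kidney and the middle part of the limb, had smaller differences. hoxa11a stood at 2.14 FPKM in control embryos and 4.601 and 5.14 FPKM in those given 3 ng and 6 ng, with folds of 2.15 (1.43 to 3.296) and 2.41 (1.59 to 3.72). hoxc11a stood at 6.85 FPKM in control embryos and 11.9 and 14.2 FPKM in those given 3 ng and 6 ng, with folds of 1.74 (1.47 to 2.08) and 2.07 (1.74 to 2.47). Each of these was above the control in both libraries by more than counting error, but below 2-fold on the log2 scale. hoxd11a (6.03, 7.51 and 8.84 FPKM in the order control, 3 ng and 6 ng) and hoxc11b (1.76, 2.15 and 3.19 FPKM) had folds at 3 ng whose intervals held 1, 1.25 (0.988 to 1.58) and 1.23 (0.959 to 1.57). At 6 ng their folds were 1.47 (1.16 to 1.86) and 1.82 (1.43 to 2.32). Over groups 10 to 13, all 13 members stood above the control in both libraries, against 51.9% and 56% of all genes counted. The interval lay above 1 for 11 of them at 3 ng and for all 13 at 6 ng, against 32.1% and 38.5% of all genes counted.

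Group 9, at the border of the middle and posterior trunk, had 5 members, of which 4 were moderately higher. Their folds at 3 ng were 1.49 (1.298 to 1.71) for hoxa9a, 1.501 (1.33 to 1.696) for hoxa9b, 1.42 (1.33 to 1.52) for hoxb9a and 1.69 (1.504 to 1.91) for hoxc9a. At 6 ng the same 4 genes had folds from 1.33 to 1.502. The exception was hoxd9a (ENSDARG00000059274, minus strand of chromosome 9, 1964005 to 1965727), at 22.1 FPKM in control embryos and 21.8 and 15.99 FPKM in those given 3 ng and 6 ng. hoxd9a was level with the control at 3 ng, and below it at 6 ng, the folds being 0.987 (0.8696 to 1.12) and 0.723 (0.623 to 0.838). It was the 1 member of groups 9 to 13 that lay below the control in either library.

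In groups 5 to 8 the members went both ways. hoxb7a, the 1 member of group 7, stood at 11.2 FPKM in control embryos and 20.5 and 20.8 FPKM in those given 3 ng and 6 ng, with folds of 1.84 (1.58 to 2.14) and 1.86 (1.59 to 2.18). hoxc5a was also higher in both libraries (8.102, 13.03 and 12.3 FPKM), with folds of 1.61 (1.28 to 2.03) and 1.52 (1.19 to 1.96). On the lower side, hoxb5b, a retinoic acid target that limits the heart field, stood at 15.3 FPKM in control embryos and 11.4 and 9.53 FPKM in those given 3 ng and 6 ng, with folds of 0.747 (0.572 to 0.976) and 0.623 (0.457 to 0.842). hoxb6b stood at 10.8, 10.2 and 7.23 FPKM and hoxb8b at 18.8, 19.04 and 11.1 FPKM, and both were lower by more than counting error at 6 ng but not at 3 ng. The levels of hoxb8a and hoxc8a (32.2, 35.8 and 39.7 FPKM) differed from the control by at most 1.23-fold in either library. hoxb5a stood at 12.8, 10.4 and 13.8 FPKM and hoxc6b at 15.6, 18.3 and 17.8 FPKM, the former below and the latter above the control at 3 ng by more than counting error.

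Groups 1 to 4 held 12 members, of which 10 stood below the control at 3 ng and all 12 at 6 ng, against 48.1% and 44% of all genes counted. The interval of the fold lay below 1 for 6 of them at 3 ng and for 8 at 6 ng, against 29.2% and 28% of all genes, and none was past 2-fold. The farthest at 3 ng was hoxb1a (ENSDARG00000008174, plus strand of chromosome 3, 23768898 to 23771142), which gives rhombomere 4 and the facial motor neurons their identity. hoxb1a stood at 3.78 FPKM in control embryos and 1.91 and 2.89 FPKM in those given 3 ng and 6 ng, with folds of 0.505 (0.349 to 0.724) and 0.765 (0.538 to 1.08), so that it was higher at 6 ng than at 3 ng. hoxc1a (10.1, 7.097 and 5.69 FPKM) and hoxc4a (13.8, 10.4 and 7.81 FPKM) were lowest at 6 ng, with folds of 0.566 (0.493 to 0.649) and 0.566 (0.451 to 0.707). hoxa4a, the most abundant member of group 4, stood at 20.6 FPKM in control embryos and 16.01 and 14.3 FPKM in those given 3 ng and 6 ng, with folds of 0.778 (0.724 to 0.835) and 0.696 (0.643 to 0.754), and hoxd4a, a hindbrain gene that responds to retinoic acid, at 11.8, 8.96 and 7.99 FPKM. hoxa2b, which selects the identity of the hyoid arch, stood at 7.52, 5.505 and 5.28 FPKM, with folds of 0.732 (0.598 to 0.896) and 0.702 (0.562 to 0.875). The remaining genes of the class, hoxa1a, hoxb1b, hoxb2a, hoxb3a, hoxb4a and hoxd3a, had folds at 3 ng from 0.834 to 1.08 whose intervals all held 1. The small differences of hoxb3a and hoxd3a at 3 ng changed sign between scalings. Of the 12 members, 11 overlap another row by position, and the 1 that overlaps none, hoxb1b, had a log2 difference of 0.11 at 3 ng.

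Read by cluster, the order along the chromosome recurred in the clusters that reach into the high groups. In hoxba, the level of hoxb13a was 0.978 times that of hoxb1a in the control, 6.97 times at 3 ng and 4.96 times at 6 ng. In hoxca, hoxc13a stood at 1.34, 4.31 and 5.83 times the level of hoxc1a in the same order of libraries, and in hoxaa, hoxa13a at 0.719, 1.93 and 2.35 times that of hoxa1a. In hoxab, hoxa13b stood at 0.254, 0.927 and 1.07 times the level of hoxa2b, and in hoxda, hoxd13a at 0.116, 0.361 and 0.351 times that of hoxd3a. In these 5 clusters the ratio of the last to the first gene was higher in both hnrnpaba libraries than in the control, and such ratios are free of library scaling. The rank correlation of the log2 difference at 3 ng with the group number was 0.90 in hoxaa (5 genes), 0.83 in hoxba (9 genes), 0.83 in hoxca (9 genes) and 0.82 in hoxda (7 genes). The hoxbb cluster, whose members here end at group 8, had no such ratio, with hoxb8b at 0.561, 0.526 and 0.408 times the level of hoxb1b. All 4 hoxbb members lay below the control at 6 ng, against 44% of all genes counted, with a median log2 difference of -0.58. The hoxbb sums were 78.5, 76.9 and 55.1 FPKM. In hoxcb, hoxc11b stood at 0.113, 0.118 and 0.179 times the level of hoxc6b. The largest cluster sums in the hnrnpaba libraries were in hoxca, at 132, 206 and 214 FPKM, of which its 5 genes of groups 9 to 13 made up 67.6, 139 and 148 FPKM. The 2 members of hoxcb, hoxc6b and hoxc11b, had summed levels of 17.4, 20.4 and 20.96 FPKM.

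**Figure D4:**
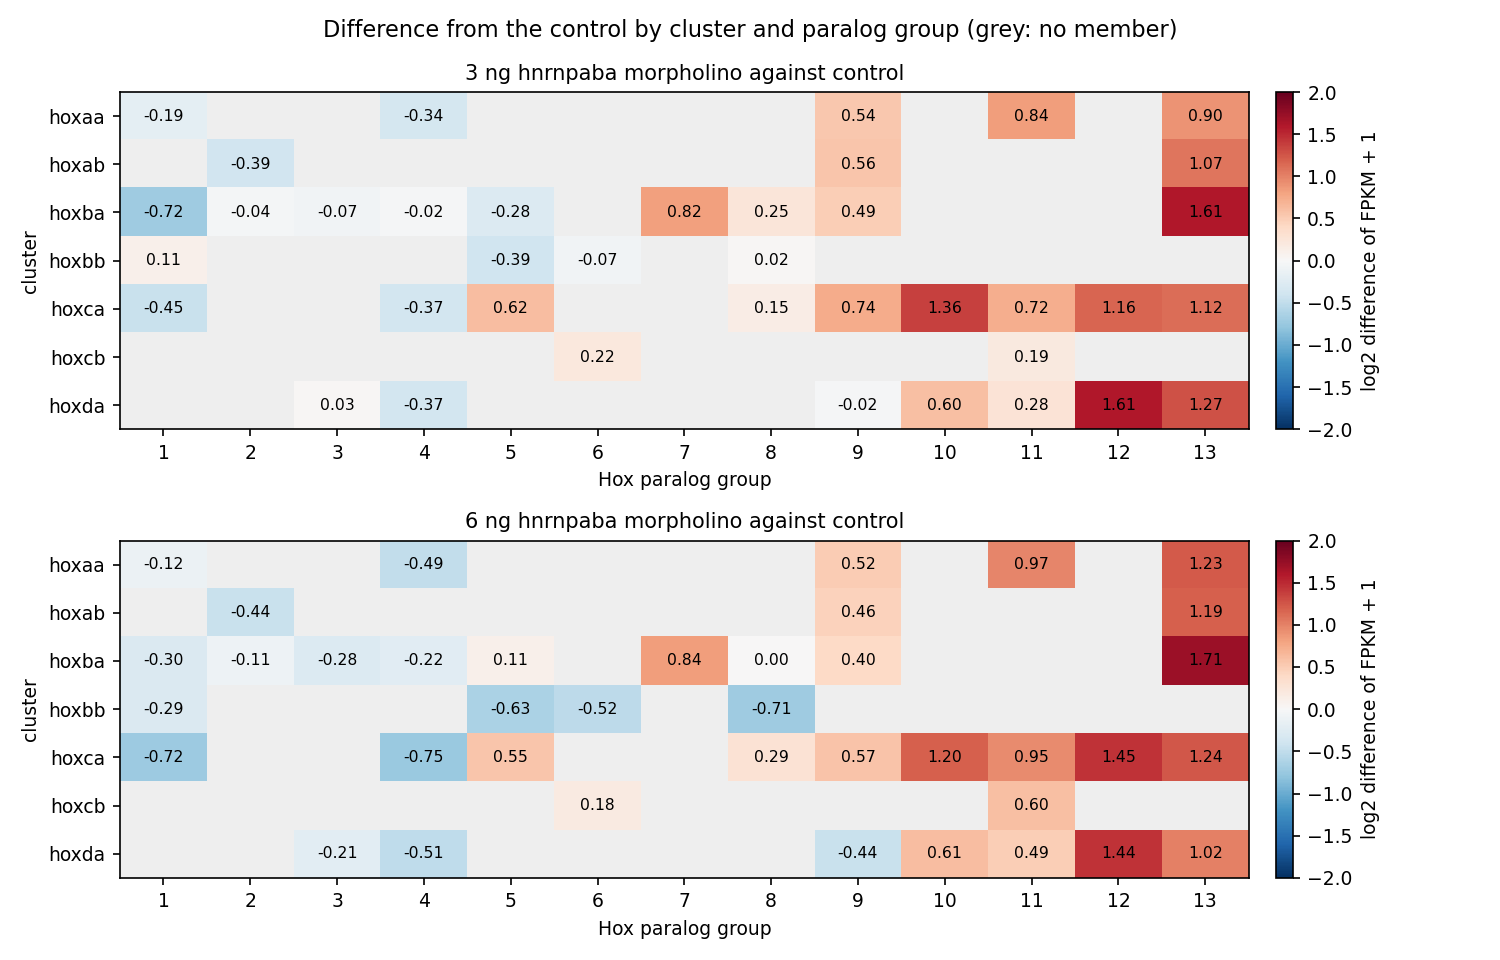
Log2 difference of FPKM + 1 from the control for each of the 39 Hox genes, with clusters as rows and paralog groups as columns, at 3 ng (top) and 6 ng (bottom); red is higher, blue lower, and grey marks places without a member. Red cells fill groups 9 to 13 except for hoxd9a, with -0.02 at 3 ng and -0.44 at 6 ng, and blue cells fill most of groups 1 to 4.

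The 9 rows described as Hox genes but without a symbol lie in the same clusters, and 6 of them overlap another row by position, in part the members above. Of the 9, the 5 in groups 9 to 13 stood above the control in both libraries with intervals that excluded 1. The interval lay above 1 for 32.1% of all genes counted at 3 ng and for 38.5% at 6 ng. hoxa11b stood at 14.6 FPKM in control embryos and 29.5 and 29.9 FPKM in those given 3 ng and 6 ng, with folds of 2.02 (1.797 to 2.27) and 2.05 (1.81 to 2.32), just short of 2-fold on the log2 scale. hoxc12b stood at 2.06, 5.02 and 4.56 FPKM, hoxb10a at 18.3, 34.2 and 29.3 FPKM, hoxa10b at 12.6, 18.5 and 16.4 FPKM and hoxc13b at 1.82, 3.14 and 3.302 FPKM. Among the middle genes, hoxc6a was higher in both libraries (17.7, 24.9 and 24.6 FPKM), hoxa5a was lower at 6 ng (13.8, 13.8 and 9.05 FPKM) and hoxb6a was within counting error of the control (14.3, 14.01 and 12.6 FPKM). hoxc3a, the 1 anterior gene of the set, went against its class (16.7, 23.8 and 21.8 FPKM), and its model spans hoxc4a, hoxc5a, hoxc6a, hoxc8a and hoxc9a. The rank correlation of the log2 difference with the group number over the 9 rows was 0.76 at 3 ng and 0.70 at 6 ng, and that with gene length over the same rows was 0.60 and 0.45. None of the 9 was past the 2-fold limit in either library.

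Between the hnrnpaba libraries themselves, 0 of 39 members were at least 2-fold higher at 6 ng than at 3 ng and 0 were lower, against 1.11% and 0.992% of all genes counted. The median log2 difference was -0.18 for groups 1 to 4 and 0.06 for groups 9 to 13, and the sign of the second changed under the median ratio and the length correction. The farthest member was hoxb8b, at 0.583 (0.482 to 0.703) times its 3 ng level. On the higher side were hoxb1a, at 1.51 (1.02 to 2.25) times, and hoxc11b, at 1.48 (1.197 to 1.84) times. Of the genes past 2-fold against the control, hoxa13a stood at 1.31 (1.04 to 1.65) and hoxd13a at 0.811 (0.631 to 1.04) times the 3 ng level. The libraries at 3 ng and 6 ng thus held similar levels of most posterior Hox genes, within 1.31-fold for those of groups 12 and 13.

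The genes that flank the clusters had medians close to the control, with single genes on either side of it. For the counts below, 3.68% of all genes counted were at least 2-fold higher at 3 ng and 6.28% at 6 ng. Of 21 rows beside the high-numbered ends (3 for each of 7 clusters), 14 were counted, with a median log2 difference of 0.01 at 3 ng and 0.08 at 6 ng, and 1, eve1, was at least 2-fold higher in both. eve1, an even-skipped homologue of the tailbud that lies beside hoxb13a, stood at 2.08 FPKM in control embryos and 7.26 and 9.33 FPKM in those given 3 ng and 6 ng, with folds of 3.49 (2.46 to 5.06) and 4.49 (3.17 to 6.51). Its relative evx1, whose model overlaps hoxa11a and hoxa13a, had a mean under 1 FPKM (0.474, 1.31 and 1.18 FPKM), as had evx2 beside hoxd13a, which lay below the control (1.72, 0.5101 and 0.668 FPKM). Of 21 rows beside the low-numbered ends, 16 were counted, with medians of 0.03 and 0.18, and 1 was at least 2-fold higher in both libraries. That gene, nfe2, a transcription factor of red cells and platelets, stood at 0.251 FPKM in control embryos and 1.68 and 1.71 FPKM in those given 3 ng and 6 ng. nfe2 thus entered the counts through the hnrnpaba libraries alone. Flanking genes within the 2-fold limit on the log2 scale also differed by more than counting error, such as skap2 (1.304, 2.74 and 3.19 FPKM), with folds of 2.098 (1.35 to 3.34) and 2.45 (1.56 to 3.93), tax1bp1a (1.67, 3.099 and 3.27 FPKM) and, on the lower side, ttll6 (3.59, 2.24 and 1.97 FPKM). Of the 17 non-Hox rows inside the clusters, 11 were counted, with medians of 0.19 and 0.15, and 1 was at least 2-fold higher at 6 ng. That row, si:dkey-81p22.14, overlaps hoxc3a and hoxc9a and stood at 1.77, 3.895 and 4.81 FPKM, with a fold at 6 ng of 2.72 (2.08 to 3.58). Within the limit on the log2 scale, LOC108191720, which overlaps hoxb8b, stood at 18.8, 38.1 and 34.4 FPKM. Its folds were 2.03 (1.59 to 2.61) and 1.83 (1.41 to 2.39). On the lower side, ENSDARG00000098798 inside hoxaa had folds of 0.569 (0.453 to 0.714) and 0.639 (0.502 to 0.810).

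Hox proteins bind DNA with partners of the TALE homeodomain class, the Pbx, Meis and Pknox proteins. Of 14 TALE genes, 13 were counted, with median log2 differences of -0.39 and -0.43, against 0.02 and 0.08 for all genes counted. None was past 2-fold at 3 ng. At 6 ng 1 gene, pbx1b, was at least 2-fold lower (2.41, 0.988 and 0.647 FPKM), against 4.53% of all genes counted. The fold of pbx1b was 0.269 (0.00546 to 2.72), with an interval that held 1, and pbx1b was at 1 FPKM or more in the control alone. That interval rests on the shortest model length that fits the values of pbx1b, so that it may be too wide. The most abundant, pbx4, a partner of Hox proteins in the hindbrain, stood at 95.1 FPKM in control embryos and 68.95 and 56.999 FPKM in those given 3 ng and 6 ng, with folds of 0.725 (0.699 to 0.752) and 0.599 (0.574 to 0.625). meis1b stood at 77.2, 67.4 and 62.7 FPKM and meis2a at 35.2, 26.3 and 20.9 FPKM. pbx2 went the other way (22.3, 26.5 and 27.4 FPKM), with folds of 1.19 (1.104 to 1.28) and 1.23 (1.14 to 1.33). The TALE list summed to 362, 298 and 266 FPKM, lower than the control in both hnrnpaba libraries.

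Among 15 regulators of the hindbrain and tailbud that act on Hox genes, 10 were counted, of which 2 at 3 ng and 3 at 6 ng were at least 2-fold higher. The shares over all genes counted were 3.68% and 6.28% higher, and 2.2% and 4.53% lower. cdx4, the caudal-type activator of posterior Hox genes, stood at 10.7 FPKM in control embryos and 22.1 and 23.7 FPKM in those given 3 ng and 6 ng, with folds of 2.07 (1.79 to 2.402) and 2.22 (1.91 to 2.59), and on the log2 scale it was past the limit at 6 ng. The others were eve1, given above, and mafbb (14.3, 29.7 and 43.5 FPKM). gbx1, of the anterior hindbrain and spinal cord, was at least 2-fold lower at 6 ng (6.16, 3.09 and 1.54 FPKM). Its relative gbx2 went the other way (6.31, 10.7 and 9.29 FPKM), with folds of 1.69 (1.42 to 2.01) and 1.47 (1.22 to 1.78). The hindbrain segment genes egr2b (1.57, 1.55 and 1.15 FPKM) and mafba (8.08, 8.105 and 9.55 FPKM) had folds at 6 ng of 0.732 (0.371 to 1.41) and 1.18 (0.973 to 1.43). Other genes of the list differed by more than counting error in both libraries. egr2a, with a mean under 1 FPKM, was lower, with folds of 0.581 (0.348 to 0.959) and 0.420 (0.220 to 0.765). hnf1ba was higher, with folds of 1.27 (1.09 to 1.49) and 1.84 (1.58 to 2.15).

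Retinoic acid switches on anterior Hox genes, and 20 of 23 genes of its pathway were matched, 19 of them counted, with medians of -0.10 and -0.18. Not matched were aldh1a2, rdh10b and rxrab, so the list says nothing of them. The binding protein gene crabp2b was the 1 gene past 2-fold in either library (11.1, 26.5 and 39.2 FPKM). Over all genes counted, 3.68% at 3 ng and 6.28% at 6 ng were at least 2-fold higher, and 2.2% and 4.53% lower. cyp26a1, which breaks down retinoic acid in the tailbud, stood at 13.8 FPKM in control embryos and 13.1 and 25.2 FPKM in those given 3 ng and 6 ng, and cyp26b1, of the hindbrain, at 10.7, 6.72 and 5.21 FPKM. By more than counting error in both libraries, crabp2a and rdh10a were above the control, and aldh1a3, raraa, rxrba and dhrs3a were below it. Polycomb proteins hold Hox genes silent and Trithorax proteins keep them active. All 25 matched genes of 28 were counted, with medians of -0.34 and -0.32. None was past 2-fold at 3 ng, and at 6 ng kmt2a was at least 2-fold lower (10.03, 5.36 and 4.08 FPKM) and cbx7a at least 2-fold higher (0.664, 1.69 and 4.82 FPKM). cbx7a entered the counts through the hnrnpaba libraries alone. The Polycomb methyltransferase gene ezh2 stood at 22.8 FPKM in control embryos and 13.3 and 11.02 FPKM in those given 3 ng and 6 ng. Its folds were 0.583 (0.534 to 0.636) and 0.484 (0.438 to 0.535). The Trithorax genes kmt2ba and kmt2bb were lower as well. The folds of kmt2ba were 0.613 (0.571 to 0.657) and 0.5105 (0.471 to 0.553). Those of kmt2bb were 0.503 (0.472 to 0.537) and 0.569 (0.532 to 0.609). Other genes of the list were above the control in 1 library by more than counting error. At 3 ng these were bmi1a, at 1.23 (1.096 to 1.38), and phc1, at 1.196 (1.067 to 1.34). At 6 ng cbx8a was, at 1.35 (1.06 to 1.73). The part of this list in the Hox differences was not tested.

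Markers of the body regions that use or lack Hox genes differed between the libraries as well. Of 12 tailbud and presomitic mesoderm markers, 11 were matched and 10 counted, and 7 at 3 ng and 8 at 6 ng were at least 2-fold higher, with 0 lower. Among all genes counted, 3.68% and 6.28% were at least 2-fold higher in the same order, and 2.2% and 4.53% lower. The tailbud markers summed to 41.3, 122 and 167 FPKM, and none of the matched genes was at 0 in any library. tbxta, a defining gene of tailbud and notochord, stood at 19.3 FPKM in control embryos and 44.6 and 52.7 FPKM in those given 3 ng and 6 ng. The others past the limit in both libraries were msgn1 (3.03, 20.1 and 24.3 FPKM), tbx6 (6.699, 25.7 and 42.1 FPKM), noto (1.59, 4.78 and 5.58 FPKM), her1 (2.27, 8.7998 and 15.2 FPKM), her7 (0.505, 3.41 and 7.07 FPKM) and mespab (0.223, 3.48 and 5.35 FPKM), and tbx16 was past it at 6 ng (1.26, 2.86 and 4.71 FPKM). These are genes of the presomitic mesoderm, its segmentation clock and the notochord. her7 and mespab were below 1 FPKM in the control. They entered the counts through the hnrnpaba libraries alone and could only be counted as higher. The fold of mespab at 3 ng was 15.6 (5.08 to 78.0). Not past the limit in either library were fgf8a (3.28, 3.097 and 4.02 FPKM) and wnt3a (2.81, 3.75 and 5.04 FPKM). The folds of fgf8a were 0.945 (0.723 to 1.24) and 1.23 (0.939 to 1.61), with intervals that held 1. Those of wnt3a were 1.33 (0.907 to 1.98) and 1.79 (1.22 to 2.66), with an interval that held 1 at 3 ng. Of 13 markers of the forebrain and midbrain, which lack Hox expression, 1 was at least 2-fold lower at 3 ng and 6 at 6 ng, with 0 higher, and their sums were 111, 112 and 85.2 FPKM. The eye field gene rx2 was past the limit in both libraries (6.77, 2.08 and 1.44 FPKM). At 6 ng it was joined by otx1 (16.6, 11.2 and 7.34 FPKM), otx2b (11.01, 7.93 and 3.37 FPKM), dmbx1a (1.88, 0.9304 and 0.367 FPKM), en2a (7.33, 5.77 and 1.7996 FPKM) and en2b (8.71, 6.82 and 0.687 FPKM), genes of the midbrain and its border. Of these, dmbx1a was at 1 FPKM or more in the control alone. Forebrain genes of the same list stood above the control in both libraries, with folds of 1.69 (1.44 to 1.98) and 1.91 (1.62 to 2.25) for emx3, 1.502 (1.26 to 1.801) and 1.62 (1.34 to 1.95) for six3a and 1.75 (1.56 to 1.96) and 1.46 (1.29 to 1.65) for six3b. Most of the counted tailbud markers, though not fgf8a, were thus higher beside the posterior Hox genes in both libraries, and the part of these markers in the Hox differences was not tested.

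Of 16 markers of hindbrain and spinal cord neurons, 14 were matched and 13 counted, with 0 past 2-fold at 3 ng, 4 lower at 6 ng (elavl3, phox2a, phox2bb and slc6a5) and sums of 132, 109 and 100 FPKM. For this list and those below, the shares over all genes counted were 2.2% and 4.53% lower, and 3.68% and 6.28% higher, at 3 ng and 6 ng. phox2bb and phox2a mark branchiomotor neurons of the hindbrain, and they stood at 2.96, 1.31 and 0.851 FPKM and 2.18, 0.652 and 0.398 FPKM. Of these, phox2a was at 1 FPKM or more in the control alone. Other genes of the list were above the control by more than counting error. isl2a had folds of 1.40 (1.23 to 1.59) and 1.58 (1.38 to 1.80), and slc17a6b of 1.35 (1.16 to 1.57) and 1.19 (1.004 to 1.41). gata3 was higher at 6 ng, at 1.44 (1.28 to 1.62), and mnx1 at 3 ng, at 1.37 (1.03 to 1.83). Of the 8 markers of the pectoral fin bud, 0 were past 2-fold in either library. The medians were 0.12 and 0.37, and the sums were 63.9, 73.1 and 91.3 FPKM. dlx5a (19.5, 26.2 and 36.8 FPKM) and prdm1a (12.5, 16.9 and 21.3 FPKM) were above the control in both libraries, sall1a was below it at 6 ng (7.66, 6.72 and 4.04 FPKM), and tbx5a (1.23, 0.806 and 0.987 FPKM) had intervals that held 1. Of the 11 pronephros markers, 9 were counted, with medians of 0.15 and 0.48, and the sums were 75.5, 77.4 and 108 FPKM. At 3 ng wt1a was at least 2-fold lower (2.01, 0.301 and 0.827 FPKM), at 6 ng lhx1a was lower (6.54, 3.43 and 2.095 FPKM) and slc12a3 higher (8.15, 11.998 and 18.1 FPKM). Of these, wt1a was at 1 FPKM or more in the control alone. Within the limit at 6 ng, slc20a1a at 2.80 (2.09 to 3.78) and cdh17 at 1.90 (1.76 to 2.06) times the control were higher. So were clcnk at 1.81 (1.33 to 2.47) and atp1a1a.4 at 1.41 (1.32 to 1.51) times, though atp1a1a.4 was lower at 3 ng, at 0.865 (0.806 to 0.928). pax8 was lower at 6 ng, at 0.547 (0.397 to 0.746). The part of these markers in the Hox differences was not tested.

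**Figure D5:**
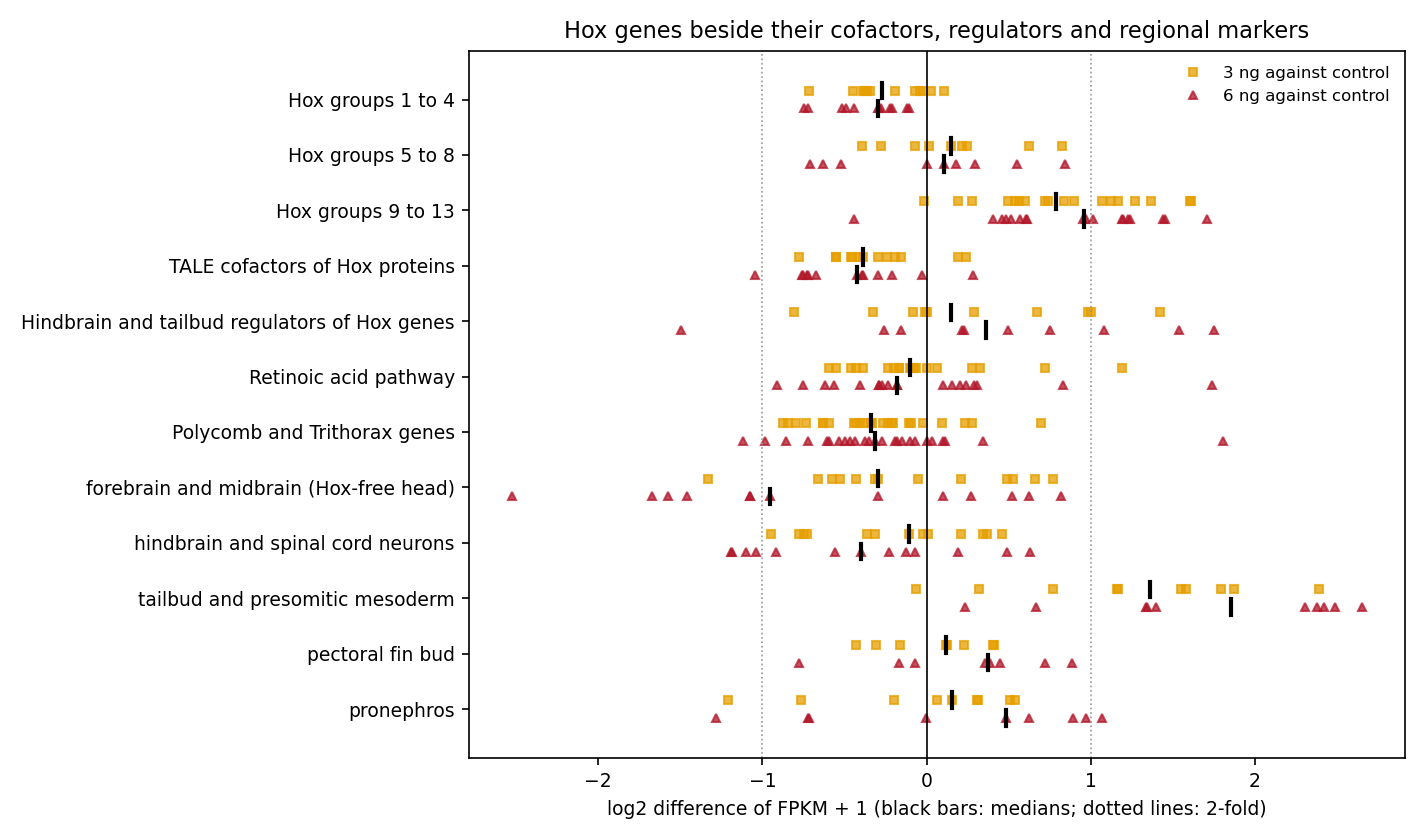
Log2 difference of FPKM + 1 from the control (x axis) for each counted gene of the Hox classes and of 9 other lists (rows), at 3 ng (orange squares) and 6 ng (red triangles), with black bars at the medians. The medians of Hox groups 9 to 13 and of the tailbud markers lie to the right of the other rows. The medians of Hox groups 1 to 4 lie to the left of 0, as do those of the TALE, retinoic acid, Polycomb and Trithorax, forebrain and midbrain, and hindbrain and spinal cord lists.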

How the data were processed

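RNA from 3 pools of 30 zebrafish embryos was sequenced on a BGISEQ-500 and mapped to a zebrafish genome and its genes, per the labels' protocols. No aligner, counting tool, build or strand setting is named in the sources used here. The authors deposited 1 table of FPKM values for 25961 genes. The control column names neither a morpholino nor a dose and was matched to the control library because that is the 1 control of the series. Hox genes were found by the symbol column, and 9 further rows by the description column.

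Library totals, gene model lengths and fragments were recovered from the FPKM values for 25956 genes, by the shortest length at which every library had a whole number of fragments. A length too short by a common factor makes intervals too wide. Intervals are exact (95%, Clopper-Pearson) and cover counting error only. Differences are log2 ratios of FPKM + 1 among the 16429 genes with a mean of at least 1 FPKM, 2-fold being the limit. No test was run, as each group has 1 library. The recovery and the 2-fold rule were tested on simulated data. Members, classes and gene lists were chosen with earlier results of these data known. Members are all accounted for, and genes of the other lists were named where they passed the 2-fold limit and otherwise as defining members or members on the other side of the control, chosen after their values were seen. Python 3.11.15, numpy 2.4.6, pandas 2.3.3 and scipy 1.17.1 were used.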

Additional observations from a re-analysis of the deposited data

How the results depend on the processing

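Of the 162 values of the counts and medians recomputed under other settings, 151 stayed within 1.5 times the count or within the counting interval of the middle gene. The 162 include counts that were 0 in the main setting, which were taken as unmoved wherever they stayed at 0. No called Hox value changed sign. Against main counts of 7 Hox genes at 3 ng and 8 at 6 ng, a pseudocount of 5 FPKM gave 3 and 4, and lowered the medians of groups 9 to 13 to 0.50 and 0.51. Over all 16429 genes counted, the higher genes numbered 604 and 1032 in the main setting and 137 and 313 with that pseudocount. A minimum mean of 5 FPKM left 5 called at 6 ng and a median of 0.61 for groups 9 to 13. Of the 9688 genes that this minimum kept, 540 were higher at 6 ng. A correction for gene length left 4 called at 3 ng and an all-Hox median of 0.0879 at 6 ng. With that correction, 490 of all genes counted were higher at 3 ng. Keeping only members that overlap no other row, a setting chosen after seeing the data, left 3 called at each dose and a median of 0.61 for groups 9 to 13 at 6 ng, and the 1 anterior gene left, hoxb1b, was at 0.11 at 3 ng. A larger pseudocount shrinks log2 differences by its formula, most in genes with low values. The overlap setting and the higher minimum hold fewer genes. Beyond that, the cause of these shifts was not tested. Adding the 9 further rows, also chosen after seeing the data, left the counts at 7 and 8. No paired analysis was possible because each group has 1 library. Depth limits the low members, such as hoxa11a, with 34 fragments in the control.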
